A study of Mus musculus with 4 samples.

Results

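The genes described here are Nos1, Gucy1a1, Gucy1b1, Npr2, Prkg1, Prkg2 and Pde5a, which make, sense or remove the messenger cyclic GMP (cGMP). They are 7 of the 54532 genes in the deposited table, found by symbol through their gene identifiers. The set was put together because Prkg1 was lower in knockout cells in these same libraries, with the others added as parts of its pathway. All values of the knockout comparison for these genes are therefore descriptions and carry no test.

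Poly(A) RNA was sequenced from gonadotropes, the pituitary cells that secrete luteinizing hormone and follicle-stimulating hormone. The cells came from male mice of mixed strain at 10 to 12 weeks of age and were isolated by flow cytometry according to the labels' protocols. The series' design text instead describes bulk profiling of the gland. There were 2 libraries from control mice and 2 from mice with a gonadotrope-specific conditional knockout of Gata2 (cKO), a gene for a zinc-finger transcription factor. The Cre driver, the Gata2 alleles, any allele that the controls carry, the marker used for sorting and any pooling of animals are not stated in the labels. Nor do the labels say whether replicate libraries are from different mice, so their spread may be technical.

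Nitric oxide (NO) and natriuretic peptides act through cGMP. NO is made by NO synthases and activates soluble guanylyl cyclase, a dimer of an alpha and a beta subunit, while natriuretic peptides bind membrane receptors whose inner part is a guanylyl cyclase. The cGMP so formed activates cGMP-dependent protein kinases and some ion channels, and phosphodiesterases such as that encoded by Pde5a break it down. C-type natriuretic peptide, its receptor NPR2 and neuronal NO synthase have all been described in gonadotropes.

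The 2 annotated starts of Prkg1 are shown because Prkg1 is the member with by far the largest difference and the deleted factor binds GATA letters. Both stretches hold the 250 bases before a start, on the minus strand, from RefSeq on GRCm38.p6, and lie at chr19:31765034-31765283 (distal start) and chr19:31664371-31664620 (proximal start). The starts are 100663 bases apart and belong to different first exons. Capitals mark AGATAA or AGATAG or TGATAA or TGATAG, searched on both strands.
Prkg1 distal: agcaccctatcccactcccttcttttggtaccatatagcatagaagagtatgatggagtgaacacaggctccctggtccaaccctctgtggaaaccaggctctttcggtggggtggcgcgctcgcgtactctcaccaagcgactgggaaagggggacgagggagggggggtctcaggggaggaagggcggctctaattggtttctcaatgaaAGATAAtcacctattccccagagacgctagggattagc
Prkg1 proximal: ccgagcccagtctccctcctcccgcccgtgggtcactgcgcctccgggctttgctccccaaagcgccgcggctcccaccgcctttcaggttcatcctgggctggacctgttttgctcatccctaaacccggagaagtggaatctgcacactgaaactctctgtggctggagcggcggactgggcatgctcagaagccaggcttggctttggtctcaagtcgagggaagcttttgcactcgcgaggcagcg
The distal stretch held 1 match, AGATAA, from 38 to 33 bases before the start, and the proximal stretch held 0. Of all 32851 stretches of this length in the RefSeq table, 8718 (26.5%) held at least 1 match. Among the 8 stretches found for 6 of the 7 genes, 4 held 1 match each. Besides the Prkg1 match these were CTATCT before a RefSeq start of Nos1 (239 to 234 bases before it) and before Gucy1b1 (185 to 180), and TGATAG before 1 of the 2 Gucy1a1 starts (184 to 179). The Nos1 stretch lies at chr5:117866589-117866838, inside the annotated gene, whose first base is 117781032, and not before its outermost start. The Gucy1a1 stretch with the match, at chr3:82145074-82145323, likewise lies inside its gene, whose outermost start on the minus strand is 82145789. No matches overlapped. A match is a description of letters and not of binding.

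Levels are given as CPM, which is counts per 1000000 after TMM scaling of the libraries. Control replicates 1 and 2 held 10646909 and 21135301 counts and were the smallest and the largest library. The cKO replicates 1 and 2 held 15541553 and 18362182 counts. Control replicate 1 stood apart, with 2941 of 17349 tested genes (17.0%) at 0 against 1.53% to 8.49% in the other libraries, and its correlation of log2 CPM with control replicate 2 across genes was 0.889. The same measure was 0.902 between both cKO libraries, and 0.917 and 0.928 between control replicate 2 and cKO replicates 1 and 2, so this control was closer to the cKO libraries than to the other control. All 8 gonadotrope markers had counts in all 4 libraries, and their summed level was 14464 to 16064 CPM in controls and 7098 to 8430 CPM in cKO, a list that holds Fshb and Lhb. Corticotrope and melanotrope markers summed to 6338 to 10201 CPM, so the libraries also hold RNA that is typical of other pituitary cells. Gata2 itself had 537 and 526 CPM in controls and 221 and 214 CPM in cKO, or 41.0% of the control mean. In RNA from sorted cells, fewer cells of a type and less RNA per cell cannot be told apart, which holds for all results here.

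Prkg1 codes for cGMP-dependent protein kinase I, the cytosolic kinase through which much of cGMP signalling runs in smooth muscle and neurons. It had 45.6 and 37.6 CPM in control replicates 1 and 2 and 2.96 and 3.88 CPM in cKO replicates 1 and 2. Both cKO libraries were thus far below both controls, and the lowest control exceeded the highest cKO library 9.70-fold. Behind these levels stood 501 and 787 counts in controls and 46 and 69 in cKO, so the transcript was detected in all 4 libraries. The cKO mean was 3.42 ± 0.651 CPM against 41.6 ± 5.62 CPM (SD, n = 2 each), which left 8.22% of the control level. The log2 fold change was -3.60 (SE 0.44), cKO minus control as throughout. Among the 12695 genes whose average log2 CPM was 2 or more, it was the 24th lowest. Prkg1 (ENSMUSG00000052920.14) spans 1200545 bases of chromosome 19, from 30564489 to 31765033 on the minus strand of mm10. The protein-coding gene Cstf2t lies inside 1 of its introns on the opposite strand and shares no exon base with it. Cstf2t, named after its values were seen, had 661, 953, 671 and 586 counts in the same order of libraries. These counts are not scaled by library size, so they do not compare levels as they stand. The libraries held 10646909, 21135301, 15541553 and 18362182 counts in that order.

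Prkg2 codes for cGMP-dependent protein kinase II, the membrane-anchored relative of the kinase from Prkg1. It had 9.0 and 3.35 CPM in controls and 4.95 and 11.1 CPM in cKO. The groups overlapped, and replicates differed 2.69-fold in controls and 2.24-fold in cKO. Its log2 fold change was 0.38 (SE 0.95), and its sign turned when either control replicate 2 (-0.16) or cKO replicate 2 (-0.33) was left out. Prkg2 (ENSMUSG00000029334.14) lies on chromosome 5, from 98929773 to 99037351. Per kilobase of exon, the level of Prkg1 was 2.5 and 5.56 times that of Prkg2 in the controls and 0.295 and 0.173 times in cKO. Prkg1 was thus the more abundant kinase transcript in both control libraries and the less abundant one in both cKO libraries.

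**Figure D1:**
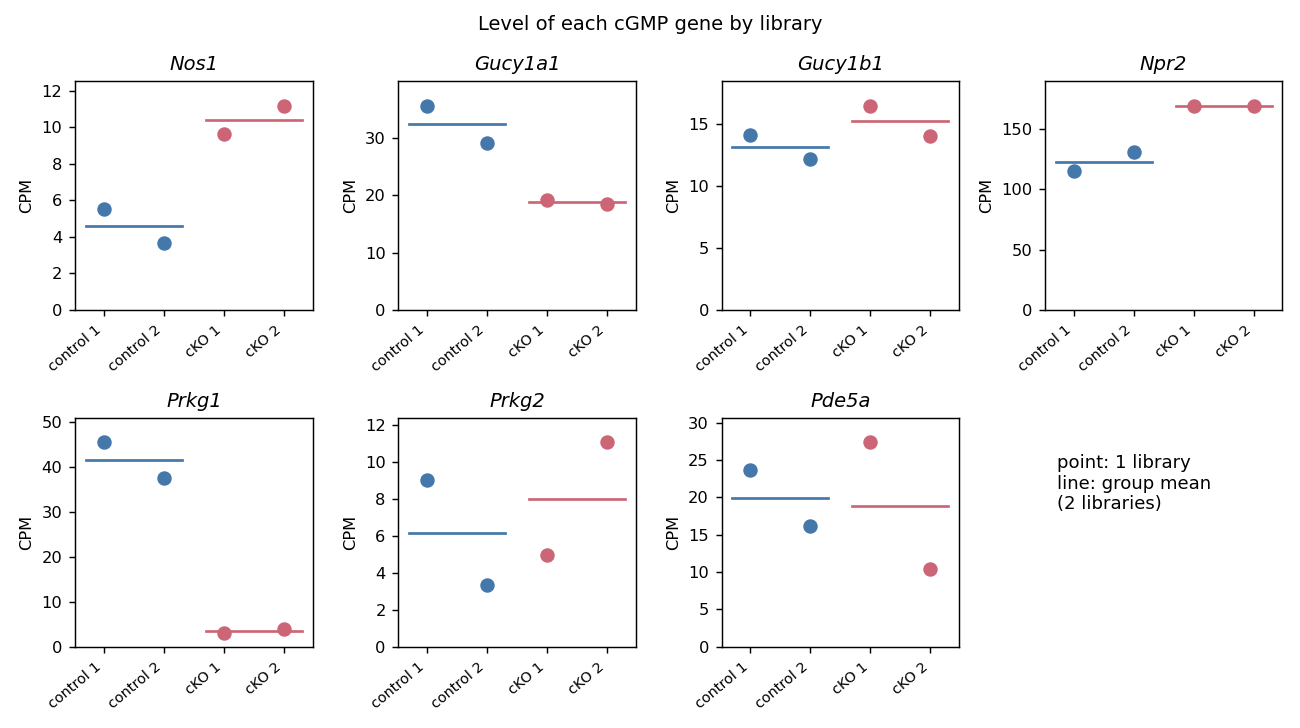
Level of each of the 7 genes in CPM (vertical axes from 0) in the 4 libraries, with points for libraries and lines for the means of 2 libraries. Prkg1 sits at 45.6 and 37.6 CPM in controls and at 2.96 and 3.88 in cKO, while Prkg2, Pde5a and Gucy1b1 overlap between groups.

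Gucy1a1 and Gucy1b1 code for the alpha-1 and beta-1 subunits of soluble guanylyl cyclase, the NO receptor. They are neighbours on the minus strand of chromosome 3, with Gucy1b1 (ENSMUSG00000028005.13) from 82032006 to 82074689 and Gucy1a1 (ENSMUSG00000033910.13) from 82092427 to 82145789. The 17737 bases between them hold 0 annotated genes. Gucy1a1 had 35.6 and 29.2 CPM in controls and 19.2 and 18.5 CPM in cKO, without overlap, and a log2 fold change of -0.78 (SE 0.36). The cKO mean of 18.9 ± 0.481 CPM was 58.3% of the control mean of 32.4 ± 4.56 CPM (SD, n = 2 each). Gucy1b1 had 14.2 and 12.2 CPM in controls and 16.5 and 14.1 CPM in cKO, which overlapped, and a log2 fold change of 0.21 (SE 0.50). Per kilobase of exon, the level of Gucy1a1 relative to Gucy1b1 was 1.42 and 1.35 in controls and 0.656 and 0.744 in cKO. On this scale the alpha-1 transcript was therefore above the beta-1 transcript in both controls and below it in both cKO libraries. This order rests on the exon lengths used, 6968 bases for Gucy1a1 and 3927 for Gucy1b1, each a union over annotated transcripts. In CPM, without length, Gucy1a1 was above Gucy1b1 in each library. The other subunits were scarce. Gucy1a2, for the alpha-2 subunit, had 0, 22, 66 and 66 counts in control replicates 1 and 2 and cKO replicates 1 and 2. Gucy1b2 had 15, 0, 0 and 33 counts, with no order between the groups.

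Npr2 codes for the receptor of C-type natriuretic peptide, also called guanylyl cyclase B, and was the most abundant of the 7 transcripts. It had 115 and 131 CPM in controls and 169 and 169 CPM in cKO, without overlap. The log2 fold change was 0.46 (SE 0.17), and the cKO mean of 168.9 ± 0.270 CPM was 138% of the control mean of 123 ± 11.4 CPM (SD, n = 2 each). Npr2 (ENSMUSG00000028469.15) lies on chromosome 4, from 43631935 to 43651244. It shares 266 exon bases with the antisense gene Gm12473, and whether counting used strand is not stated in the labels. Gm12473 had 71, 246, 422 and 357 counts beside 1261, 2737, 2624 and 3009 for Npr2, in control replicates 1 and 2 and cKO replicates 1 and 2. Reads from the shared bases cannot be assigned to either gene with certainty.

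Of the other natriuretic peptide genes 5 were tested, and edgeR called 0, with 1 (Npr3, lower) at an unadjusted p under 0.05, 0 with DESeq2 and 1 (Npr3) with limma-voom. Npr3, for the clearance receptor that removes natriuretic peptides and has no cyclase, had 61.8 and 56.6 CPM in controls and 38.1 and 15.7 CPM in cKO, and a log2 fold change of -1.14 (SE 0.43), which ran from -1.91 to -0.65 with 1 library left out. The per-kilobase level of Npr2 relative to Npr3 was 3.73 and 4.65 in controls and 8.92 and 21.6 in cKO. Npr1, the receptor of atrial and brain natriuretic peptides and named after its values were seen, had 10.6 and 4.49 CPM in controls and 9.13 and 8.09 CPM in cKO. Npr2 exceeded Npr1 by a factor of 11 to 29.8 per kilobase over the 4 libraries. Of these receptors with a cyclase, Npr2 thus had the more abundant transcript in each library, and receptor protein was not measured. Nppc, the gene of C-type natriuretic peptide, had 0, 219, 1 and 25 counts, so nearly all of its signal came from control replicate 2. Furin, for a protease that processes many precursors, had a log2 fold change of 0.13 (SE 0.22).

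Nos1 codes for neuronal NO synthase. It had 5.55 and 3.68 CPM in controls and 9.65 and 11.2 CPM in cKO, from 61 and 77 counts and from 150 and 199 counts. The groups did not overlap, and the cKO mean of 10.4 ± 1.09 CPM was 226% of the control mean of 4.61 ± 1.32 CPM (SD, n = 2 each). Its log2 fold change of 1.18 had an SE of 0.81. Nos1 (ENSMUSG00000029361.18) lies on chromosome 5, from 117781032 to 117958840, and shares 268 exon bases with Gm26995 on the opposite strand. Gm26995 had 30 counts in cKO replicate 2 and 0 in the other libraries. The other NO synthases were close to absent from the counts. Nos2 had 16 counts in control replicate 2 alone and Nos3 had 33 counts in cKO replicate 2 alone, both named after their values were seen.

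Pde5a codes for the cGMP-specific phosphodiesterase that sildenafil inhibits. It had 23.7 and 16.2 CPM in controls and 27.4 and 10.4 CPM in cKO. Both cKO values lay outside the range of the controls, on opposite sides of it, and the cKO replicates differed 2.63-fold. The log2 fold change was -0.08 (SE 0.57) and turned positive when control replicate 1 (0.22) or cKO replicate 2 (0.45) was left out. Pde5a (ENSMUSG00000053965.10) lies on chromosome 3, from 122728947 to 122859374. It shares 55 exon bases with 4930447N08Rik on the opposite strand, which had 139 counts over all libraries.

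The order of the levels can be read only per length, as CPM per kilobase of exon. In controls the means were 26.3 for Npr2, 4.65 for Gucy1a1, 3.83 for Prkg1, 3.36 for Gucy1b1, 2.03 for Pde5a, 1.15 for Prkg2 and 0.414 for Nos1. In that order Gucy1a1 and Prkg1, Prkg1 and Gucy1b1, and Pde5a and Prkg2 were neighbours whose libraries overlapped. In cKO the means were 36.2 for Npr2, 3.89 for Gucy1b1, 2.71 for Gucy1a1, 1.92 for Pde5a, 1.49 for Prkg2, 0.934 for Nos1 and 0.315 for Prkg1. Here the libraries of Gucy1a1 and Pde5a, of Pde5a and Prkg2, and of Prkg2 and Nos1 overlapped. Prkg1 thus stood in the third place of the 7 in controls and in the last in cKO. Among all genes tested, 45.7% had a lower per-kilobase mean than Prkg1 in controls and 6.49% in cKO. For Npr2 these shares were 90.2% and 93.5%.

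**Figure D2:**
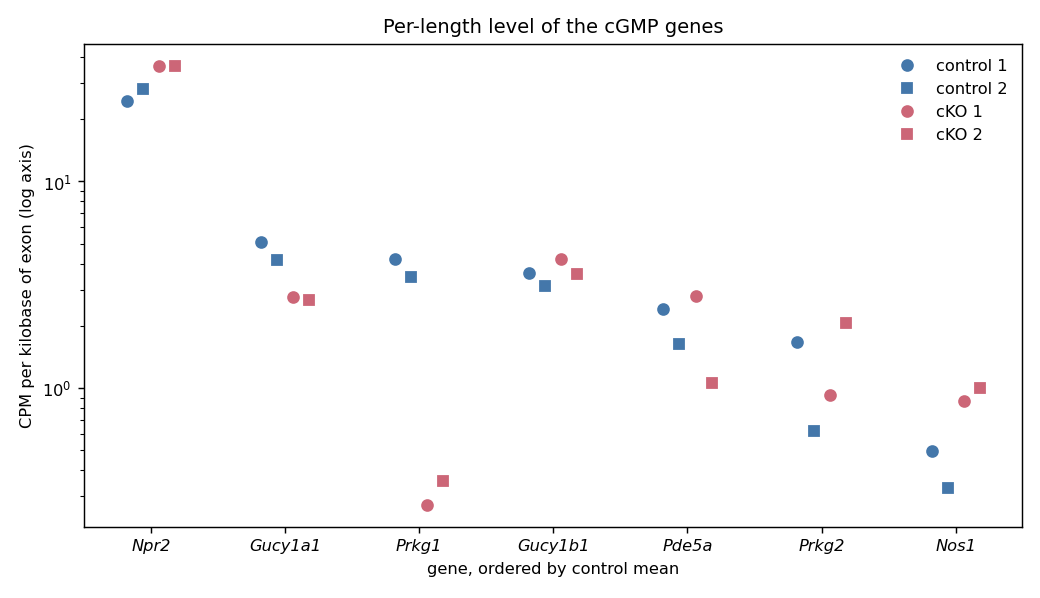
CPM per kilobase of exon (log axis) for the 7 genes, ordered by their control mean, with 1 point for each of the 4 libraries. Npr2 lies above all others in each library, and Prkg1 moves from 3.83 in controls to 0.315 in cKO.

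Over the table edgeR's quasi-likelihood test with Benjamini-Hochberg adjustment called 10 of 17349 genes (0.0576%) at an adjusted p under 0.05, with 8 lower (0.0461%) and 2 higher (0.0115%). Of the 7 genes 0 were called, Prkg1 included. At an unadjusted p under 0.05 there were 2, Prkg1 (lower) and Npr2 (higher), beside 7.04% of all genes. DESeq2 called the same 2 genes, beside 5.44% of all genes, and limma-voom called Prkg1, beside 1.48%. In edgeR fits with any 1 of the 4 libraries left out Prkg1 had log2 fold changes from -3.82 to -3.42. Groups did not overlap for 4 of the 7, lower for Prkg1 and Gucy1a1 and higher for Npr2 and Nos1, beside 39.0% of all genes tested. The median log2 fold change of the 7 was 0.21, beside 0.03 for all genes tested. Since the genes were chosen with this comparison known, nothing is read from these counts.

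A list of 90 genes for NO, natriuretic peptide and cGMP signalling was drawn up from general knowledge, and 61 of them passed the filter on low counts. Without the 7 genes there were 54, of which edgeR called 0 in either direction. At an unadjusted p under 0.05 there were 4 lower (Npr3, Itpr1, Kcnma1 and Hcn3) and 0 higher, beside 3.88% lower and 3.15% higher over all genes. DESeq2 called 1 of the 54, Itpr1, and limma-voom 1, Npr3, both lower. Their median log2 fold change was 0.03, as over all genes tested. Groups did not overlap for 14 lower and 10 higher members of the 54, beside 19.3% and 19.7% of all genes. Of the 48 pathway genes whose average log2 CPM was 2 or more, the 47 other than Prkg1 had log2 fold changes from -1.14 (Npr3) to 1.38 (Gucy2f). Both ends moved with 1 library left out, Npr3 from -1.91 without cKO replicate 1 to -0.65 without cKO replicate 2, and Gucy2f from 0.39 without control replicate 1 to 10.34 without control replicate 2. Gucy2f also had 3.14 with limma-voom and 3.33 with the replicate block.

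**Figure D3:**
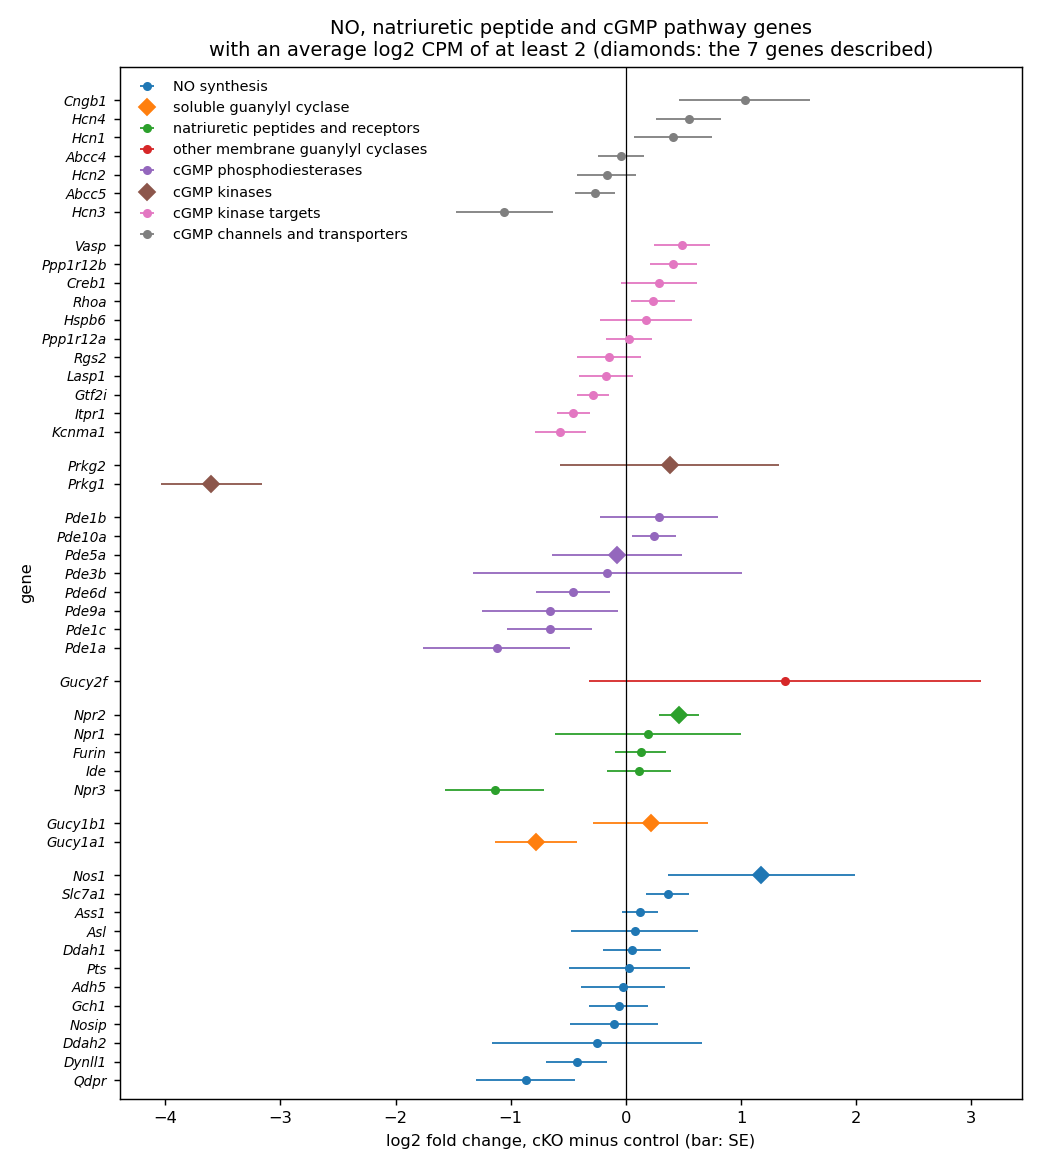
Log2 fold change, cKO minus control (bars: SE), of the 48 pathway genes at an average log2 CPM of 2 or more, grouped by role, with diamonds for the 7 genes described. Prkg1 lies at -3.60, and the other 47 lie between -1.14 and 1.38 with all 4 libraries, a range whose ends, Npr3 and Gucy2f, moved when 1 library was left out.

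Genes for NO synthesis and its regulators gave 0 calls among 16 tested, 0 at an unadjusted p under 0.05 and 0 with DESeq2 or limma-voom. Nos1ap, for an adaptor of neuronal NO synthase, had 0 and 17 counts in controls and 87 and 95 in cKO. Slc7a1, for a transporter of the NO precursor arginine, had 124 and 128 CPM in controls and 145 and 178 CPM in cKO, a log2 fold change of 0.36 (SE 0.19). Qdpr, for an enzyme that regenerates the cofactor tetrahydrobiopterin, had -0.87 (SE 0.43), and Dynll1, for a light chain that binds neuronal NO synthase, had -0.43 (SE 0.26).

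The list of phosphodiesterases that act on cGMP gave 0 calls among 9 tested, 0 at an unadjusted p under 0.05 and 0 with DESeq2 or limma-voom. The calmodulin-dependent enzymes Pde1a and Pde1c had log2 fold changes of -1.12 (SE 0.64) and -0.66 (SE 0.37). Pde1a had 23.7 and 14.9 CPM in controls and 12.7 and 5.0 CPM in cKO, and Pde1c had 36.5 and 50.9 CPM and 20.8 and 34.5 CPM, both without overlap. Pde6d, counted among the 9 although its product carries prenylated proteins, had -0.46 (SE 0.32). Pde10a, for an enzyme that acts on both cAMP and cGMP, had 94.3 and 104 CPM in controls and 111 and 124 CPM in cKO, with 0.24 (SE 0.19).

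Targets and partners of the cGMP kinases gave 0 calls among 11 tested. Itpr1, for the calcium release channel of the endoplasmic reticulum, had 510 and 472 CPM in controls and 385 and 332 CPM in cKO, a log2 fold change of -0.46 (SE 0.15). Kcnma1, for the large-conductance potassium channel that cGMP kinase regulates, had 189 and 192 CPM in controls and 103 and 154 CPM in cKO (-0.57, SE 0.22). Those were the 2 members of this list with an unadjusted p under 0.05, and DESeq2 called Itpr1 alone and limma-voom 0. Gtf2i, for a transcription factor, had -0.29 (SE 0.14), and Ppp1r12b, for a myosin phosphatase subunit, had 0.41 (SE 0.20). Mrvi1, now named Irag1, which codes for a substrate that links the kinase from Prkg1 to the calcium release channel, had 0 counts in all 4 libraries and was named after its values were seen.

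Channels opened or tuned by cyclic nucleotides and cGMP transporters gave 0 calls among 9 tested, with 1 (Hcn3) at an unadjusted p under 0.05 and 0 with DESeq2 or limma-voom. The pacemaker channel genes Hcn3 and Hcn4 had log2 fold changes of -1.05 (SE 0.42) and 0.55 (SE 0.28). Cngb1, for a subunit of cyclic nucleotide-gated channels, had 7.37 and 9.13 CPM in controls and 20.4 and 13.4 CPM in cKO (1.03, SE 0.57). Abcc5, for an exporter of cGMP, had -0.27 (SE 0.18).

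The remaining membrane guanylyl cyclases and their activators were sparse, and 4 of 9 were tested with 0 calls, 0 at an unadjusted p under 0.05 and 0 with DESeq2 or limma-voom. Guca1a and Guca1b, for cyclase activators of photoreceptors, had 52 and 13 counts and 28 and 21 counts in controls and 0 in both cKO libraries. Set against a floor of 3 counts per cKO library, the control means were 14.8-fold and 9.82-fold higher. The floor covers counting error only. These ratios take the control mean as exact, although the control replicates differed 7.61-fold and 2.54-fold, so they are not lower bounds. Gucy2f, for a retinal cyclase, had 0, 174, 230 and 127 counts in control replicates 1 and 2 and cKO replicates 1 and 2, and Gucy2d had 0, 15, 26 and 0.

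The cAMP counterparts, which are the subunits of cAMP-dependent protein kinase, the adenylyl cyclases and the cAMP phosphodiesterases, gave 0 calls among 22 tested, 0 at an unadjusted p under 0.05 and 0 with DESeq2 or limma-voom. Their median log2 fold change was -0.10. Prkar2a, for a regulatory subunit of the kinase, had 60.1 and 65.4 CPM in controls and 49.6 and 43.1 CPM in cKO (-0.44, SE 0.25). The phosphodiesterase genes Pde4a, Pde4c and Pde7a had -0.60 (SE 0.40), -1.93 (SE 1.0) and 0.52 (SE 0.32).

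The genes with the profile most like that of Prkg1 were found by the distance between log2 CPM profiles over the 4 libraries, each centred on its own mean, among 11622 genes. The 5 closest were Lpl (distance 0.384), Rflnb (0.412), Fat4 (0.502), Chga (0.613) and Cldn2 (0.622). They code for lipoprotein lipase, a filamin-binding protein, a large cadherin, chromogranin A of secretory granules and a tight junction protein. Lpl had 47.8 and 42.9 CPM in controls and 4.69 and 4.95 CPM in cKO. Fat4 had 42.4 and 37.1 CPM in controls and 1.86 and 4.27 CPM in cKO. With only 4 libraries this likeness mostly restates a low level in both cKO libraries. Of the other 6 genes described here Gucy1a1 was the nearest, in place 827 (distance 2.69), and Nos1 the farthest, in place 10821 (distance 4.55).

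**Figure D4:**
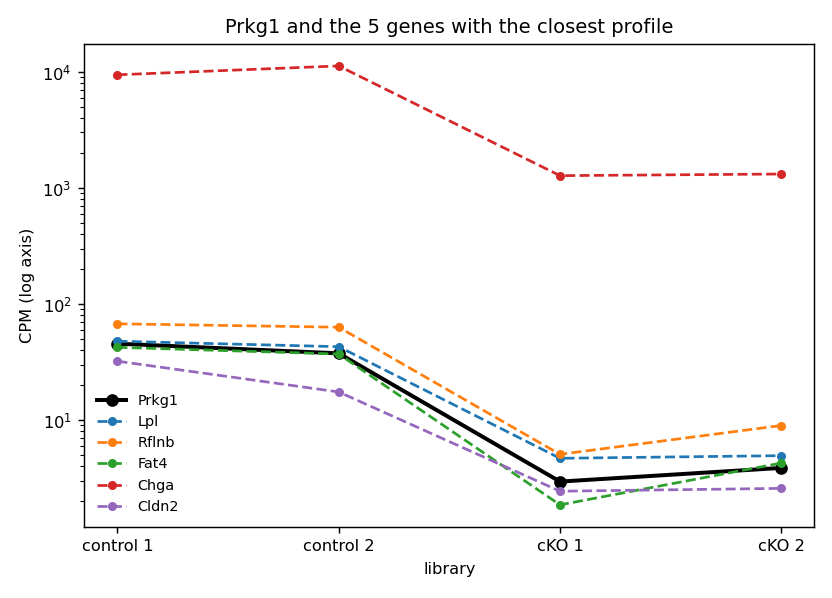
CPM (log axis) of Prkg1 and of the 5 genes with the closest profile in the 4 libraries, with lines joining the values of a gene. Prkg1, Lpl and Fat4 lie between 37.1 and 47.8 CPM in controls and between 1.86 and 4.95 CPM in cKO.

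Prkg1, Pde5a and soluble guanylyl cyclase are also known from vascular smooth muscle and pericytes, so markers of those cells are given beside them. The 10 pericyte and smooth muscle markers summed to 12.4 and 21.6 CPM in controls and 17.6 and 26.8 CPM in cKO. Their summed level was thus not lower in cKO. Notch3, named after its values were seen, was the largest part of this sum in each library. It had 8.28 and 8.84 CPM in controls and 6.43 and 12.5 CPM in cKO. In control replicate 1, 8 of the 10 had 0 counts, among them Rgs5, Pdgfrb, Acta2 and Myh11, but 17.0% of all tested genes were at 0 in that library. Higd1b had 0 counts in all libraries. The part of pericytes and smooth muscle in the Prkg1 value was not tested. The 8 endothelial markers summed to 37.7 and 36.1 CPM in controls and 21.8 and 11.5 CPM in cKO, and 7 of them had counts in at least 1 library, all but Emcn. Of these Cdh5 had 1.73 and 18.2 CPM in controls and 12.2 and 5.40 CPM in cKO, and Pecam1 had 15.8 and 4.68 CPM and 3.73 and 3.82 CPM. Tek had 11.5 and 1.15 CPM in controls and 0 in both cKO libraries. Egfl7 had 8.64 and 3.01 CPM and 2.83 and 0 CPM, both genes named after their values were seen. Markers at 0 counts numbered 4 and 1 of 8 in controls and 3 and 4 in cKO. Of the 7 tested, 5 had a log2 fold change below 0 and 2 above. The summed endothelial level was thus lower in cKO, as Prkg1 was, but it came from different markers in different libraries. The part of endothelium in the Prkg1 value was not tested. The 13 mitochondrially encoded genes held 5.36% and 6.04% of the counts in controls and 7.58% and 8.74% in cKO, and the 4 lactotrope markers summed to 358 and 629 CPM in controls and 1350 and 1365 CPM in cKO. The part of either in the values of the 7 genes was not tested.

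**Figure D5:**
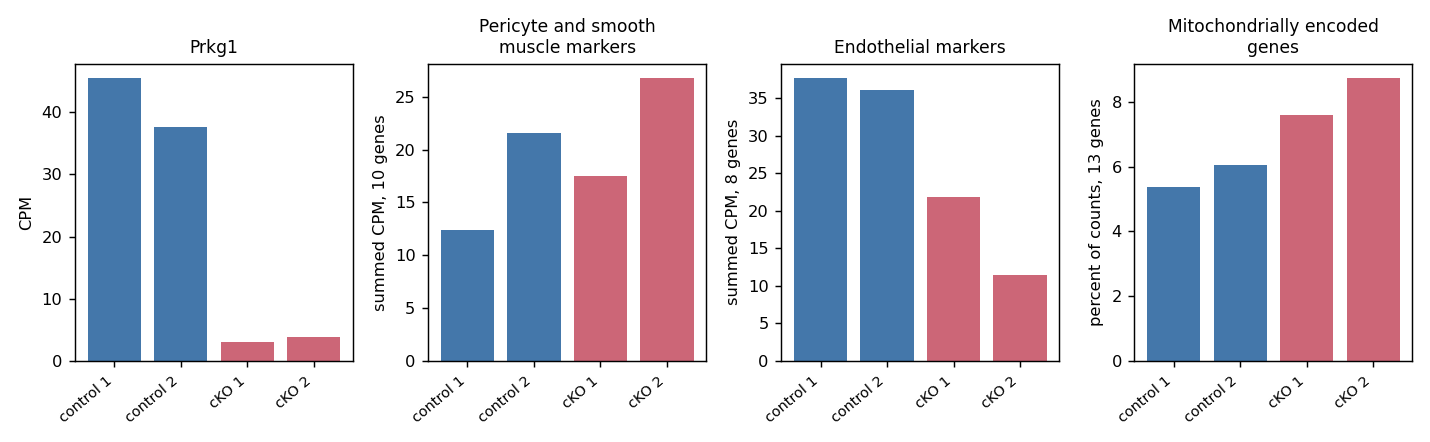
Prkg1 in CPM, the summed CPM of 10 pericyte and smooth muscle markers and of 8 endothelial markers, and the percent of counts from 13 mitochondrially encoded genes, with 1 bar for each library. Prkg1 and the endothelial sum are higher in both controls, the mitochondrial share is higher in both cKO libraries, and the pericyte sum is lowest in control replicate 1.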

How the data were processed

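RNA of sorted gonadotropes from 2 control and 2 cKO samples was compared, grouped by the titles and genotypes in the labels. The deposited table holds estimated counts, which the authors made on mm10 using the aligner STAR (2.5.1b) and the counter featureCounts (1.5.0-p1), per the submitters' processing notes, and left unscaled. Annotation release, strand setting and multi-mapping rules are not given in the sources used. Fractional numbers made up 4.50% of the table and 0 of the 28 values of the 7 genes. Symbols, positions and exon lengths (union of exons) came from GENCODE M21, matching 54495 of 54532 identifiers with the version left off.

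Counts were rounded, filtered with filterByExpr (minimum count 10, minimum total 15) and scaled by TMM over 17349 genes. The test was edgeR 4.0.16 (quasi-likelihood, two-sided, group as the only term, R 4.3.3). It was also tried on simulated counts, but the outcome is not given here and nothing is drawn from it. The SE is the size of the log2 fold change divided by the square root of F. Profiles used log2 CPM with a prior of 0.5. Alternatives were other scaling factors, other filters, DESeq2 1.42.0, limma-voom 3.58.1, unrounded counts, the replicate number as a block and each library left out. Added after seeing the data were a fit without mitochondrial genes and edgeR's newer method.

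The genes, lists and tests were chosen with earlier results of these data known. Named genes were the 7, Gata2, up to 4 per pathway list with the smallest p and the 5 closest to Prkg1 (average log2 CPM of 2 or more, named symbols only). Others are said to have been named after their values were seen. Marker sums are given for gonadotropes, corticotropes and melanotropes, lactotropes, pericytes and smooth muscle, and endothelium. Sums for the other cell types are not given here. Apart from gonadotrope markers, marker genes are named for pericytes and smooth muscle and for endothelium only. Protein sequences were not used here.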

Additional observations from a re-analysis of the deposited data

How the results depend on the processing

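Over the whole table, the 10 calls turned into 943 under DESeq2, 256 under limma-voom, 47 under edgeR's newer method, 253 when no filter was used, 3 when 1 CPM in 2 libraries was required, and between 66 and 681 on leaving out single libraries; the cause was not tested. Pathway genes called went from 0 to 1 without a filter (Prkg1), 3 with DESeq2 (Itpr1, Npr2 and Prkg1), 2 with limma-voom (Npr3 and Prkg1), 1 with the newer method (Prkg1) and 1 to 2 with 1 library left out. The log2 fold change of Prkg1 kept its direction in all 15 alternatives. Prkg1 was chosen for its lower level in these same libraries, so neither its direction nor its calls are a test of it. Its value was called at -3.60 without a filter, -3.60 with DESeq2, -3.54 with limma-voom and -3.56 with the newer method. With each library left out in turn it was -3.82 to -3.42. Fits that leave a lone library in a group take its variation from the other group. Nos1, Gucy1a1, Gucy1b1 and Npr2 also kept their direction in all 15. With 1 library left out, Prkg2 ranged from -0.33 to 1.25, Pde5a from -0.94 to 0.45, Gucy1b2 from -6.45 to 7.08, Nppc from -6.19 to 6.46, Furin from -0.029 to 0.26, Gucy2d from -5.61 to 6.64 and Pde4a from -1.05 to 0.057, and Gucy2d had -0.14 with limma-voom. Same-numbered replicates did not deviate together (r = -0.011 across genes), and the replicate block gave 7 genes, 0 pathway genes and a Prkg1 value of -3.60, not called. Counts of 0 in 1 library beside clear counts in its replicate limit what can be said of sparse genes.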

Other observations

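Some genes had 0 counts in 1 library and at least 50 in each of the other 3. There were 412 of these with the 0 in control replicate 1, 0 in control replicate 2, 65 in cKO replicate 1 and 36 in cKO replicate 2. Those of control replicate 1 included Prkar2b, for a regulatory subunit of cAMP-dependent protein kinase, with 433, 316 and 310 counts in control replicate 2 and cKO replicates 1 and 2. They also included Gucy2f, Adcy1 and Pde7b. None of the 7 genes described above had a 0 in any of the 4 libraries.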
